A study of Alligator mississippiensis with 4 samples.

Results

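Ion channels and gap junction proteins set the electrical state of a cell and its coupling to its neighbours. The genes described here are the rows of an alligator scale dermis expression table whose symbol begins as those of the potassium, calcium and sodium channel subunits, the TRP cation channels, PIEZO, the connexins, the CLCN and anoctamin families, and the ionotropic GABA, glutamate, ATP and acid-sensing receptors. This rule took 77 rows with 75 symbols out of the 10466 rows of the table, without using any measured value. The 77 rows were 27 of potassium channels, 11 of connexins, 11 of the TRP family, 11 of ligand-gated receptors, 9 of calcium channels, 5 of chloride channels and anoctamins, 2 of sodium channel beta subunits and 1 of PIEZO2. TRPC4AP, which the rule takes by its first letters, is a protein that binds TRPC4 and not a channel, and KCNIP1 and KCNIP2 are calcium-binding regulators of potassium channels.

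The study set the dermis of overlapping scales of the American alligator (Alligator mississippiensis) beside that of chicken feathers and scales, and here its regions and stages are compared with each other. The series holds 4 RNA-seq libraries, 1 each of Es22 dorsal, Es22 ventral, Es19 dorsal and Es19 ventral tissue, all from untreated embryos of fertilized eggs, where Es is the embryonic stage (placodes at Es19, buds at Es22). The titles of the samples name scale dermis and their tissue entry names skin, and the methods describe dermis separated from its epidermis. The methods also state that replicates were prepared, but the table gives 1 column for each region and stage, and whether a column pools embryos was not given in the sources used here.

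A connexin hexamer in one membrane docks with that of a neighbouring cell and forms a gap junction channel, through which ions and small metabolites pass. Potassium channels hold the membrane at a negative potential, calcium channels and many TRP channels let calcium enter the cell, and chloride channels act at the surface or in the membranes of lysosomes. Many of the genes encode auxiliary subunits, which make no pore and change the traffic or gating of a pore subunit. Connexins and potassium channels are known for their part in skin patterning in zebrafish, in which mutations of GJA5 and of potassium channel genes alter pigment stripes or fin size.

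The libraries held 10722075 to 13220854 reads in the table. Values are in CPM, the reads of a gene scaled to a common library size, with TMM normalization, which corrects for differences in RNA composition, and 1 read was worth 0.0679 to 0.103 CPM. Of 12 markers of dermal fibroblasts, 10 had a row, and they summed to 437431 CPM in Es22 dorsal, 350023 CPM in Es22 ventral, 186911 CPM in Es19 dorsal and 89192 CPM in Es19 ventral dermis, nearly all of it from COL1A1 and COL1A2. Markers of other cell types had reads in every library. In bulk tissue such as this, fewer cells of a type and less RNA per cell cannot be told apart. CPM is not corrected for transcript length, so levels are compared between libraries and not between genes.

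The 77 rows lay low in the table. The median of their mean levels was 6.94 CPM, against 21.0 CPM over all rows, and in 28 of the 77 rows the mean reached 10 CPM. Every row of the table reached at least 1.03 CPM before the TMM factors in its second-highest library, so a gene that was low in a pair of libraries has a row because of the other pair. This touched 12 of the 77 rows, or 15.6%, against 5.75% of all rows, and among them TRPM4, GJB2, ANO9 and GRIN2B were under 1 CPM on that scale in both Es19 libraries, and GJD2 and GRIK1 in both Es22 libraries. TRPM7, KCNK17 and GABRD were under it in both dorsal libraries, and GJB1 in both ventral libraries. The mean was at least 1 CPM for all 77 rows, which entered the tests.

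Of 212 symbols of the RefSeq annotation of alligator (assembly rAllMis1) that fit the rule, 68 had a row, and 7 further symbols with a row were not symbols of that annotation. Connexins were covered best among the larger families, with 9 of 16 annotated symbols, and the TRP family with 10 of 18. Potassium channels had 24 of 88, ligand-gated receptors 9 of 40 and calcium channels 8 of 25. The calcium channel rows held a single pore subunit, CACNA1S, and the sodium channel rows held beta subunits alone, SCN2B among them. PIEZO1 and the sodium channel pore subunits were not analysed here.

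The rows varied more between the 4 libraries than the table as a whole did. On the log2(CPM + 1) scale, the highest and lowest library were at least 1 apart in 37 rows (48.1%, against 20.1% of all rows) and at least 2 apart in 12 rows (15.6%, against 4.78%). Counting error is larger at low levels, and its part in this was not tested. At the other end, 15 rows (19.5%, against 47.7%) spanned less than 0.5. The steadiest was TRPC4AP, with 85.0 CPM in Es22 dorsal, 89.1 CPM in Es22 ventral, 91.1 CPM in Es19 dorsal and 91.1 CPM in Es19 ventral dermis. Es22 dorsal dermis held the highest value of 24 rows (31.2%, against 31.2% of all rows), Es22 ventral of 9 (11.7%, against 19.3%), Es19 dorsal of 26 (33.8%, against 24.3%) and Es19 ventral of 18 (23.4%, against 25.2%).

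Connexins were present under 11 symbols, and their rows moved in different directions. GJA1 and GJC1, broadly expressed connexins of mesenchyme and muscle, were higher in ventral dermis, while GJA4 and GJB2 were higher at Es22 than at Es19. GJA1 had 108 CPM in Es22 dorsal, 119 CPM in Es22 ventral, 137 CPM in Es19 dorsal and 267 CPM in Es19 ventral dermis. The Es19 ventral library stood apart, and the other 3 lay within a narrow band. At Es19 GJA1 was 1.94-fold lower in dorsal than in ventral dermis (95% interval 1.84 to 2.06 from the reads, which covers counting error only, as do all intervals here), against 1.11-fold lower at Es22 (1.02 to 1.20). Between stages it was 2.25-fold lower at Es22 in ventral dermis (2.1 to 2.4) and 1.28-fold lower in dorsal dermis (1.19 to 1.38).

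**Figure D1:**
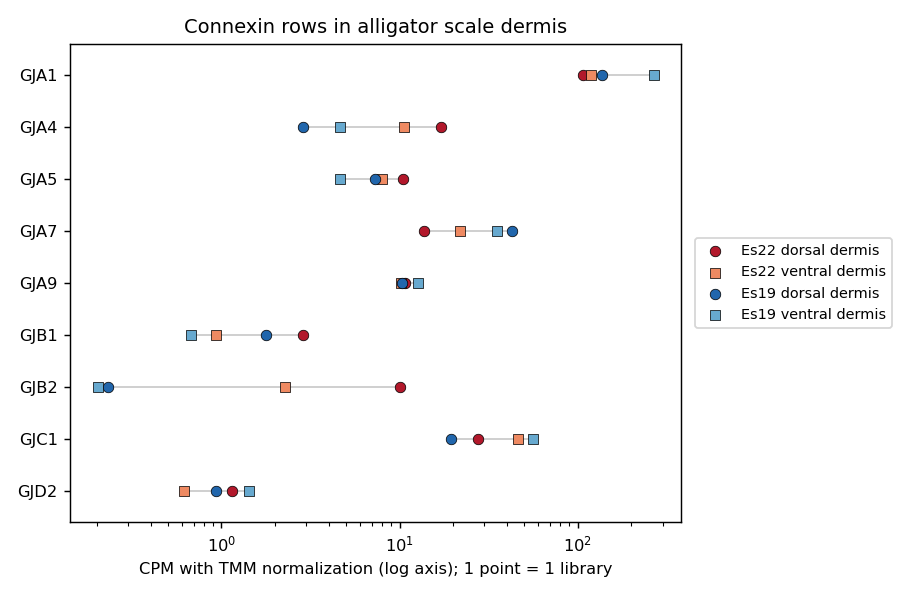
Levels of 9 connexin rows in the 4 libraries, in CPM with TMM normalization on a log axis, with 1 point per library. GJA1 reached 267 CPM in Es19 ventral dermis, and GJB2 had 2.27 to 10.1 CPM in the Es22 libraries and 0.204 to 0.232 CPM in the Es19 libraries.

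GJC1, a connexin of smooth muscle and the cardiac conduction system, had 27.5 CPM in Es22 dorsal and 46.3 CPM in Es22 ventral dermis, against 19.6 CPM in Es19 dorsal and 56.3 CPM in Es19 ventral dermis. Both dorsal libraries lay below both ventral ones. The dorsal level was 1.69-fold lower at Es22 (1.45 to 1.96) and 2.88-fold lower at Es19 (2.50 to 3.32), and the region difference in limma was -1.11 on the log2 scale (SE 0.23, adjusted p = 0.25). A second row, under GJA7, an older name of human GJC1, went another way, with 13.7 CPM in Es22 dorsal, 22 CPM in Es22 ventral, 42.8 CPM in Es19 dorsal and 35.1 CPM in Es19 ventral dermis. Both Es22 libraries lay below both Es19 libraries for GJA7, 3.12-fold in dorsal (2.59 to 3.77) and 1.60-fold in ventral dermis (1.36 to 1.89). Which gene the GJA7 record stands for was not resolved, so the pair is reported as uncertain.

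GJA4 and GJA5 are the connexins of arterial endothelium. GJA4 had 17.0 CPM in Es22 dorsal and 10.6 CPM in Es22 ventral dermis, against 2.86 CPM in Es19 dorsal and 4.61 CPM in Es19 ventral dermis. It was 5.94-fold higher at Es22 in dorsal (4.15 to 8.71) and 2.30-fold higher in ventral dermis (1.68 to 3.18), with a limma difference of 1.64 (SE 0.34, adjusted p = 0.069). The regions changed order, since the dorsal level was 1.60-fold higher than the ventral one at Es22 (1.25 to 2.06) and 1.61-fold lower at Es19 (1.06 to 2.47). GJA5 had 10.5 CPM in Es22 dorsal, 7.94 CPM in Es22 ventral, 7.28 CPM in Es19 dorsal and 4.61 CPM in Es19 ventral dermis, a narrower range with the dorsal library above the ventral one at each stage. Of 16 endothelial markers, 12 had a row, and they summed to 701 CPM in Es22 dorsal, 515 CPM in Es22 ventral, 283 CPM in Es19 dorsal and 258 CPM in Es19 ventral dermis, with none at 0. All 12 were higher at Es22 in ventral dermis and 11 of 12 in dorsal dermis, and their part in the GJA4 difference was not tested.

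GJB2, a connexin of the epidermis, had almost no reads at Es19. It had 10.1 CPM in Es22 dorsal and 2.27 CPM in Es22 ventral dermis, against 0.232 CPM in Es19 dorsal and 0.204 CPM in Es19 ventral dermis, where each value stood for 3 reads. The dorsal library at Es22 was 4.44-fold higher than the ventral one (2.79 to 7.39), and 43.4-fold higher than the dorsal library at Es19 (14.5 to 214), and the ventral library at Es22 was 11.2-fold higher than that at Es19 (3.35 to 58.2). GJB2 was thus highest in Es22 dorsal and second in Es22 ventral dermis.

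GJA9 lay between 10.2 and 12.6 CPM in all 4 libraries. GJB1, known from liver and Schwann cells, had 2.88 CPM in Es22 dorsal and 0.929 CPM in Es22 ventral dermis, and 1.78 CPM in Es19 dorsal and 0.679 CPM in Es19 ventral dermis, so that dorsal was above ventral by 3.10-fold at Es22 (1.44 to 7.43) and by 2.62-fold at Es19 (1.20 to 6.17). GJB1 has a row only through its dorsal values, so that direction was fixed in advance. GJD2, a neuronal connexin, lay between 0.619 and 1.42 CPM, and all 4 of its ratios had intervals that included 1. None of the 11 connexins passed limma for region or for stage, while 3 had an unadjusted p under 0.05 for region (against 7.55% of all rows) and 5 for stage (against 20.6%), and edgeR passed GJA4 and GJB2 for stage (against 5.03% of all rows).

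For the test between regions, limma was fitted to the 10236 rows whose mean reached 1 CPM, with a term each for region and stage, which leaves 1 residual degree of freedom. The spread it uses is how far the region difference varied between the stages, moderated over all rows, not the spread between embryos. Of the 77 rows, 1 passed for region at a Benjamini-Hochberg adjusted p under 0.05, or 1.30% (GABRD), against 0.234% of all rows tested. GABRD has a row only through its ventral values, so its direction was fixed in advance here and in the size rule below. By size alone, 1 row (TRPM1) exceeded the ventral level 2-fold or more on the log2(CPM + 1) scale at both stages, against 0.596% of all rows, and 2 rows (TRPC4 and GABRD) were at least 2-fold lower at both, against 0.469%. At whatever size, 19 rows had the higher value in dorsal dermis at each stage, 20 the lower value at each and 38 changed order, shares close to those of the whole table, in which 24.5% were higher and 25.3% lower at both.

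**Figure D2:**
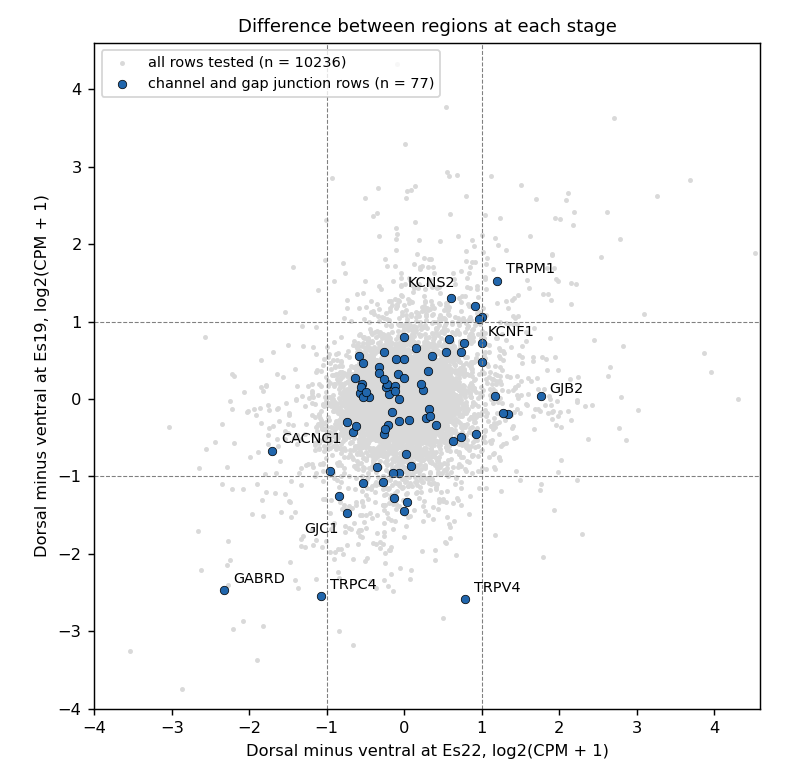
Difference between dorsal and ventral dermis at Es22 (x axis) and at Es19 (y axis), in log2(CPM + 1), for the 77 channel and gap junction rows (blue) and all 10236 rows tested (grey), with dashed lines at a 2-fold difference. TRPM1 lies beyond both lines on the dorsal side, TRPC4 and GABRD on the ventral side, and TRPV4 lies on opposite sides at Es22 and Es19; 5 grey rows fall outside the axes.

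GABRD, the delta subunit of GABA-gated chloride channels, was low in dorsal dermis. It had 0.192 CPM in Es22 dorsal against 4.95 CPM in Es22 ventral dermis, and 0.774 CPM in Es19 dorsal against 8.82 CPM in Es19 ventral dermis. The dorsal values stood for 2 reads at Es22 and 10 reads at Es19, the ventral ones for 48 and 130 reads. Without those ventral values GABRD would have no row, so the direction of its region difference was fixed in advance. Both dorsal libraries lay below both ventral ones, by 25.8-fold at Es22 (6.76 to 219) and by 11.4-fold at Es19 (6.0 to 24.3). In limma the region difference was -2.39 (SE 0.26, adjusted p = 0.048), and edgeR on the recovered reads, which passed 2 of the 77 rows for region (GABRD and TRPM1, against 0.44% of all rows), gave an adjusted p of 0.026. The limma call was lost with a pseudocount of 5 (adjusted p = 0.13) and with upper-quartile scaling (adjusted p = 0.062). With any 1 of the 4 libraries left out, in a fit without the stage term, the difference lay between -2.76 and -2.03. That fit passed 0 rows of the table even with all 4 libraries, so it cannot show whether the call rests on 1 library. Of 10 neuron markers, 4 had a row, 3 of them lower in dorsal dermis at each stage, and they summed to 39.6 CPM in Es22 dorsal, 42.5 CPM in Es22 ventral, 69.6 CPM in Es19 dorsal and 71.6 CPM in Es19 ventral dermis, with none at 0. Among the 3, STMN2 had 0.192 CPM in Es22 dorsal and 0.0774 CPM in Es19 dorsal dermis. STMN2 has a row only through its ventral values, so its direction was also fixed in advance. The remaining marker, NEFM, was higher in dorsal dermis at each stage. The part of the neuron markers in the GABRD difference was not tested. The other GABA receptor row, GABRR3, a rho subunit, lay between 27.9 and 36.0 CPM in all 4 libraries.

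TRPM1, a TRP channel of melanocytes and of retinal bipolar cells, was the 1 row 2-fold or more above ventral dermis at each stage. It had 49.6 CPM in Es22 dorsal against 21.0 CPM in Es22 ventral dermis, and 33.2 CPM in Es19 dorsal against 10.9 CPM in Es19 ventral dermis. Both dorsal libraries were above both ventral ones, by 2.36-fold at Es22 (2.0 to 2.78) and 3.06-fold at Es19 (2.54 to 3.69), and within each region Es22 was above Es19. The difference did not pass limma (1.36, SE 0.20, adjusted p = 0.11), and in edgeR its adjusted p was 0.049. Of 9 melanocyte markers, 4 had a row (TYRP1, DCT, PMEL and GPR143), and they summed to 479 CPM in Es22 dorsal, 136 CPM in Es22 ventral, 178 CPM in Es19 dorsal and 98.8 CPM in Es19 ventral dermis. At each stage all 4 were higher in dorsal dermis, and in each region all 4 were higher at Es22, none was at 0, and their part in the TRPM1 difference was not tested.

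TRPC4, a receptor-operated calcium entry channel, was the mirror case. It had 5.09 CPM in Es22 dorsal against 11.9 CPM in Es22 ventral dermis, and 6.04 CPM in Es19 dorsal against 40.1 CPM in Es19 ventral dermis. Dorsal dermis was low at both stages, and Es19 ventral dermis stood apart from the other 3 libraries. Dorsal was lower by 2.33-fold at Es22 (1.67 to 3.29) and by 6.64-fold at Es19 (5.24 to 8.52), and in limma the difference was -1.81 (SE 0.38, adjusted p = 0.25). Without Es19 ventral dermis the fitted difference was -0.97.

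The other rows at the ends of the region comparison were GJB1, GJC1 and TRPC5, given in other paragraphs, and the potassium and calcium channel subunits given here. None of them passed limma for region, and the direction of GJB1 was fixed in advance by its dorsal values. KCNA2, a delayed rectifier subunit, had 7.88 CPM in Es22 dorsal against 3.71 CPM in Es22 ventral dermis, and 7.66 CPM in Es19 dorsal against 2.78 CPM in Es19 ventral dermis. KCNF1, an electrically silent modifier of delayed rectifiers, had 11.2 CPM in Es22 dorsal against 5.26 CPM in Es22 ventral dermis, and 8.51 CPM in Es19 dorsal against 3.66 CPM in Es19 ventral dermis. For both genes the dorsal libraries were above the ventral ones, by 2.12-fold (KCNA2, 1.42 to 3.23) and 2.14-fold (KCNF1, 1.53 to 3.03) at Es22, and by 2.75-fold (1.90 to 4.07) and 2.32-fold (1.66 to 3.28) at Es19. KCNA5, a delayed rectifier of vascular and cardiac muscle, went the other way, with 5.57 CPM in Es22 dorsal against 11.8 CPM in Es22 ventral dermis, and 10.6 CPM in Es19 dorsal against 21.2 CPM in Es19 ventral dermis. CACNA2D3, an alpha2-delta subunit that carries calcium channels to the membrane, had 1.92 CPM in Es22 dorsal against 4.23 CPM in Es22 ventral dermis, and 2.94 CPM in Es19 dorsal against 8.41 CPM in Es19 ventral dermis. The dorsal level was lower by 2.11-fold (KCNA5, 1.53 to 2.95) and 2.20-fold (CACNA2D3, 1.26 to 3.97) at Es22, and by 2.0-fold (1.63 to 2.46) and 2.86-fold (1.97 to 4.23) at Es19.

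Read at a single stage, the region difference was of another size. At Es22, 7 rows had a dorsal level 2-fold or more above the ventral one on the log2(CPM + 1) scale (9.09%, against 2.69% of all rows), namely ANO9, ASIC1, GJB1, GJB2, GRIA3, TRPM1 and TRPM4, and 3 were lower (3.90%, against 1.94%), namely CACNG1, GABRD and TRPC4. At Es19, 5 rows were higher in dorsal dermis (6.49%, against 2.57%), namely KCNA2, KCNF1, KCNS2, TRPC5 and TRPM1, and 10 were lower (13.0%, against 2.84%), namely CACNA2D3, GABRD, GJC1, KCNE4, KCNH5, KCNJ8, KCNS3, PIEZO2, TRPC4 and TRPV4. These counts compare single libraries and have no replicate check. GJB1 has a row only through its dorsal values and GABRD only through its ventral values, so their directions were fixed in advance. TRPV4, an osmosensitive calcium channel of skin and cartilage chosen here after its values were seen, had 1.44 CPM in Es22 dorsal, 0.413 CPM in Es22 ventral, 0.310 CPM in Es19 dorsal and 6.85 CPM in Es19 ventral dermis. It was highest in Es19 ventral dermis, and at Es19 dorsal was 22.1-fold lower (8.38 to 82.8).

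KCNJ8, KCNS3 and PIEZO2 shared that low dorsal level at Es19. The first, KCNJ8, the pore of an ATP-sensitive potassium channel of pericytes and vascular smooth muscle, had 9.80 CPM in Es22 dorsal and 10.8 CPM in Es22 ventral dermis, and 3.87 CPM in Es19 dorsal against 10.8 CPM in Es19 ventral dermis. KCNS3, a silent modifier subunit, had 21.5 CPM in Es22 dorsal and 21.5 CPM in Es22 ventral dermis, and 9.98 CPM in Es19 dorsal against 28.8 CPM in Es19 ventral dermis. PIEZO2, the stretch-gated channel of touch-sensing Merkel cells and sensory neurons, had 1.54 CPM in Es22 dorsal and 2.06 CPM in Es22 ventral dermis, and 0.542 CPM in Es19 dorsal against 2.24 CPM in Es19 ventral dermis. In each the Es19 dorsal library was the lowest and the Es22 libraries were near each other. Of 12 markers of smooth muscle and pericytes, 4 had a row, all lower in dorsal dermis at Es19, and they summed to 220 CPM in Es22 dorsal, 225 CPM in Es22 ventral, 178 CPM in Es19 dorsal and 238 CPM in Es19 ventral dermis. None was at 0, and their part in the KCNJ8 difference was not tested. PIEZO2 was 4.13-fold lower in dorsal dermis at Es19 (1.80 to 11.1), on few reads, and its ratio at Es22 had an interval that included 1. It stands on the study's list of scale-associated genes. KCNS2 and KCNH5 stand on its list of feather-associated genes, and both lists were drawn up from chicken feather and scale dermis and not from these libraries.

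KCNS2, also a silent modifier, had 15.1 CPM in Es22 dorsal against 9.60 CPM in Es22 ventral dermis, and 18.7 CPM in Es19 dorsal against 6.99 CPM in Es19 ventral dermis. KCNH5, a voltage-gated channel of the EAG group, had 2.69 CPM in Es22 dorsal against 4.33 CPM in Es22 ventral dermis, and 5.19 CPM in Es19 dorsal against 12.1 CPM in Es19 ventral dermis. The 2 genes of that list thus differed between regions in opposite directions. KCNS2 was 1.57-fold higher in dorsal dermis at Es22 (1.21 to 2.05) and 2.68-fold higher at Es19 (2.12 to 3.41), and KCNH5 was 2.34-fold lower there at Es19 (1.76 to 3.15) with an interval that included 1 at Es22 (0.975 to 2.70). KCNH5 was also lower at Es22 than at Es19, by 1.93-fold in dorsal (1.22 to 3.11) and 2.80-fold in ventral dermis (1.99 to 4.02).

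Between the stages, 3 of the 77 rows passed limma, or 3.90%, against 3.13% of all rows tested, a share near that of the table. They were KCNE4, CACNG1 and ANO9, all higher at Es22. By size alone, 7 rows (9.09%, against 3.26%) stood 2-fold or more above Es19 in each region at Es22, namely these 3 with TRPM4, GJA4, GJB2 and TRPC5, and 0 rows fell 2-fold or more in both, against 0.537%. In edgeR, 7 rows passed (9.09%, against 5.03% of all rows), which were KCNE4, CACNG1, ANO9, TRPM4, GJA4, GJB2 and GRIN2B. At whatever size, 28 rows had the higher value at Es22 in each region, 21 the lower value in each and 28 changed direction, against 34.3% higher and 33.3% lower of all rows.

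**Figure D3:**
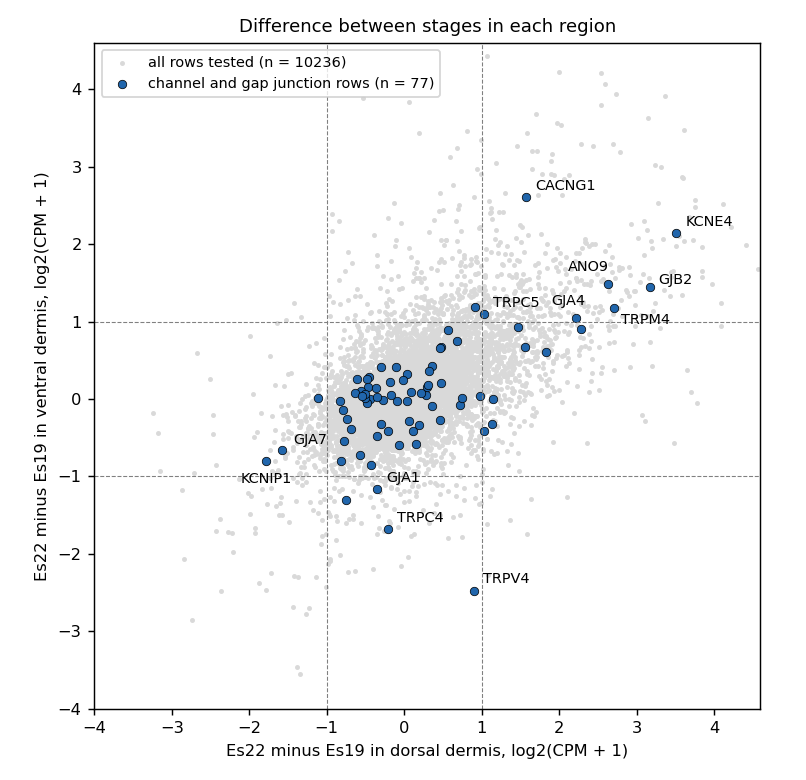
Difference between Es22 and Es19 in dorsal (x axis) and in ventral dermis (y axis), in log2(CPM + 1), for the 77 channel and gap junction rows (blue) and all 10236 rows tested (grey), with dashed lines at a 2-fold difference. The 7 rows beyond both lines are all on the Es22 side, KCNE4 is the farthest out in dorsal dermis, and 17 grey rows fall outside the axes.

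KCNE4, a single-pass auxiliary subunit that damps potassium channels such as KCNQ1, changed most. It had 13.1 CPM in Es22 dorsal and 12.7 CPM in Es22 ventral dermis, against 0.232 CPM in Es19 dorsal and 2.1 CPM in Es19 ventral dermis. The Es19 values stood for 3 and 31 reads, and the Es22 libraries were level with each other. The Es22 level was 56.3-fold higher in dorsal (18.9 to 276) and 6.03-fold higher in ventral dermis (4.04 to 9.26). In limma the stage difference was 2.83 (SE 0.38, adjusted p = 0.028). With 1 library left out, in a fit without the region term, it lay between 2.16 and 3.49. That fit passed 0 rows of the table with all 4 libraries, so it cannot show whether the call rests on 1 library. Of 17 red blood cell markers, 8 had a row, and they summed to 10772 CPM in Es22 dorsal, 13022 CPM in Es22 ventral, 860 CPM in Es19 dorsal and 3195 CPM in Es19 ventral dermis. All 8 were higher at Es22 in each region, 6 passed limma for stage (against 3.13% of all rows) and none was at 0. Other marker lists rose too, and all 7 macrophage markers with a row were higher at Es22 in each region. Among 4 neuron markers with a row, 1 was higher at Es22 in dorsal and 2 in ventral dermis. For smooth muscle and pericytes, 4 markers had a row, of which 3 were higher at Es22 in dorsal and 2 in ventral dermis. The part of any of these cell types in the KCNE4 difference was not tested. KCNQ3, the other row of that group and a pore subunit of the neuronal M-current, had 20.8 CPM in Es22 dorsal, 26.3 CPM in Es22 ventral, 31.0 CPM in Es19 dorsal and 24.4 CPM in Es19 ventral dermis.

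CACNG1, the gamma subunit of the L-type calcium channel of skeletal muscle, had 5.19 CPM in Es22 dorsal and 19.2 CPM in Es22 ventral dermis, against 1.08 CPM in Es19 dorsal and 2.31 CPM in Es19 ventral dermis. Both Es22 libraries were above both Es19 libraries, by 4.79-fold in dorsal (2.62 to 9.33) and 8.32-fold in ventral dermis (5.75 to 12.4), and at each stage dorsal was below ventral. In limma the stage difference was 2.09 (SE 0.33, adjusted p = 0.037), and the call was lost with a pseudocount of 5 (adjusted p = 0.089). With any 1 library left out, in a fit without the region term, the difference lay between 1.24 and 2.94. The pore subunit of the same channel, CACNA1S, moved otherwise, with 3.27 CPM in Es22 dorsal, 6.09 CPM in Es22 ventral, 4.80 CPM in Es19 dorsal and 6.11 CPM in Es19 ventral dermis. Its beta subunit CACNB1 was lower at Es22 in both regions, by 1.86-fold in dorsal (1.33 to 2.64) and 1.51-fold in ventral dermis (1.16 to 1.99).

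Of 15 skeletal muscle markers, 8 had a row, and they summed to 463 CPM in Es22 dorsal, 1562 CPM in Es22 ventral, 184 CPM in Es19 dorsal and 245 CPM in Es19 ventral dermis. The 8 markers were higher at Es22 in ventral dermis in all 8 cases and in dorsal dermis in 7, and 6 of them passed limma for stage (against 3.13% of all rows). None was at 0, and their part in the CACNG1 difference was not tested.

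ANO9, a member of the anoctamin family of chloride channels and lipid scramblases, had 6.63 CPM in Es22 dorsal and 2.37 CPM in Es22 ventral dermis, against 0.232 CPM in Es19 dorsal and 0.204 CPM in Es19 ventral dermis, where each value was again 3 reads. TRPM4, a sodium-conducting channel opened by calcium, had 8.55 CPM in Es22 dorsal and 2.79 CPM in Es22 ventral dermis, against 0.464 CPM in Es19 dorsal and 0.679 CPM in Es19 ventral dermis. Both had the order of GJB2, with Es22 dorsal highest, Es22 ventral second and Es19 near the floor. ANO9 was 28.6-fold higher at Es22 in dorsal (9.37 to 142) and 11.7-fold higher in ventral dermis (3.52 to 60.6), and in limma its stage difference was 2.06 (SE 0.35, adjusted p = 0.042). That call was lost with a pseudocount of 5 (adjusted p = 0.096) and with upper-quartile scaling (adjusted p = 0.051). With any 1 library left out, in a fit without the region term, the ANO9 difference lay between 1.47 and 2.65. TRPM4 was 18.4-fold higher in dorsal (8.13 to 51.5) and 4.11-fold higher in ventral dermis (1.93 to 9.51), with an adjusted p of 0.070 in limma and 0.031 in edgeR, and for GJB2 these were 0.055 and 0.0098.

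Of 18 epidermal markers, 7 had a row, and they summed to 1002 CPM in Es22 dorsal, 248 CPM in Es22 ventral, 41.0 CPM in Es19 dorsal and 51.0 CPM in Es19 ventral dermis. All 7 were higher in dorsal than in ventral dermis at Es22. By stage, all 7 were higher at Es22 in dorsal dermis and 6 in ventral dermis, and 4 passed limma (against 3.13% of all rows). COL17A1, with 0.0774 CPM in Es19 dorsal and 0.0679 CPM in Es19 ventral dermis, has a row only through its Es22 values. Its direction by stage was thus fixed in advance. KRT14, the keratin of the basal epidermis, had 306 CPM in Es22 dorsal, 64.2 CPM in Es22 ventral, 2.48 CPM in Es19 dorsal and 2.51 CPM in Es19 ventral dermis. None of the 7 was at 0 in any library. Their part in the GJB2, ANO9 and TRPM4 differences was not tested.

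**Figure D4:**
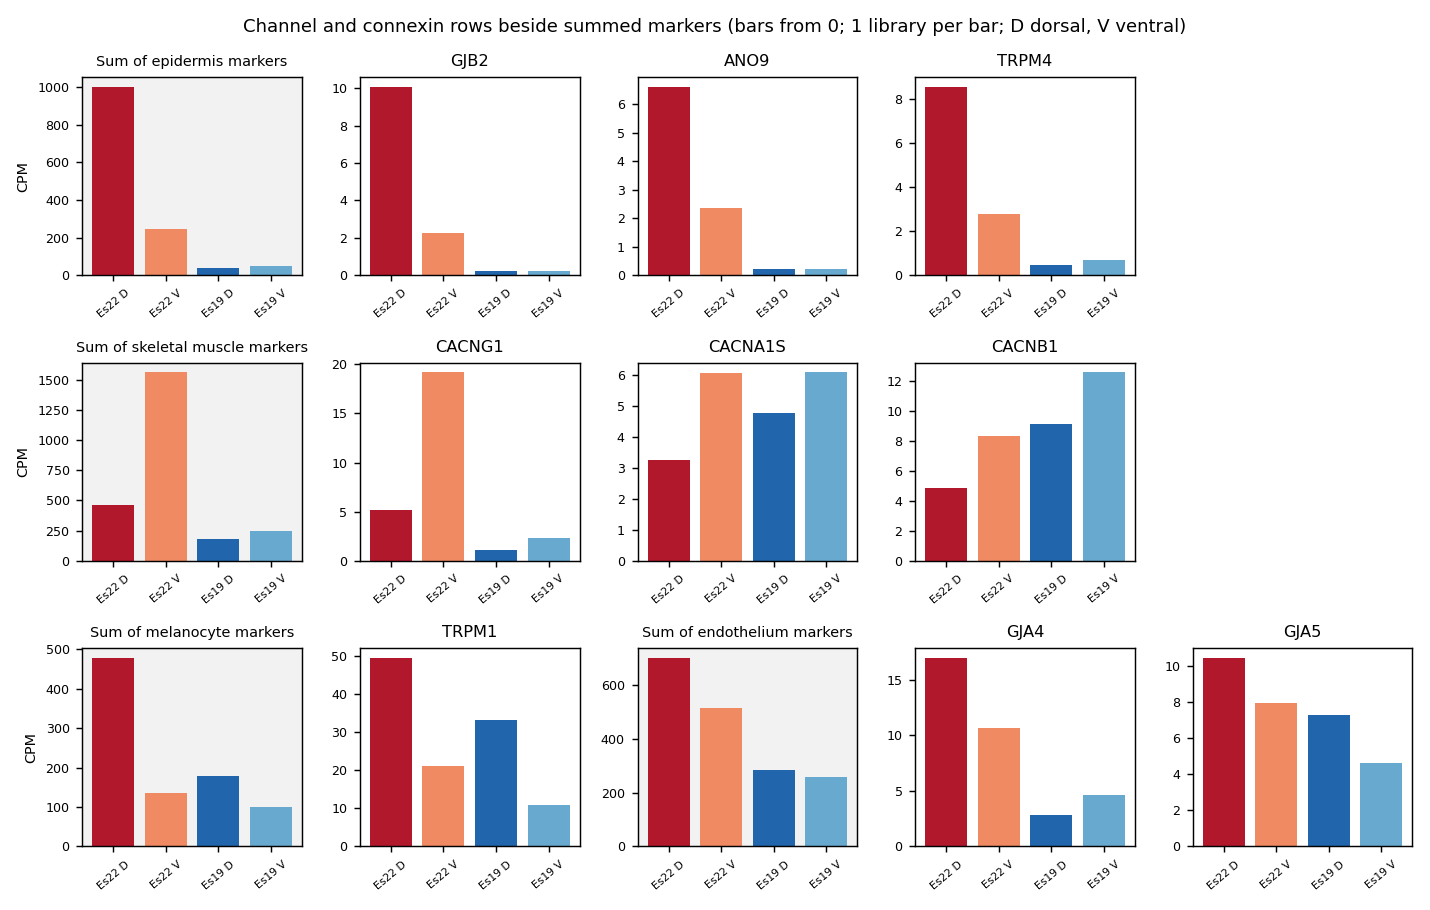
Levels in CPM (bars from 0, 1 library per bar) of channel and connexin rows beside the summed level of markers of 4 cell types (grey panels), for Es22 dorsal, Es22 ventral, Es19 dorsal and Es19 ventral dermis. GJB2, ANO9, TRPM4 and the epidermal sum (1002 CPM) all peak in Es22 dorsal dermis, CACNG1 and the muscle sum (1562 CPM) in Es22 ventral dermis, while CACNA1S and CACNB1 do not follow the muscle sum.

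TRPC5, a calcium-permeable channel of the TRPC4 group, had 3.27 CPM in Es22 dorsal, 1.13 CPM in Es22 ventral and 1.08 CPM in Es19 dorsal dermis, and 0 reads in Es19 ventral dermis. A count of 0 allows up to 3 reads there, or 0.204 CPM, and against that floor the ventral level was at least 5.58-fold higher at Es22, and the Es19 dorsal level at least 5.32-fold higher than the Es19 ventral one. With the counting error of both libraries, the lower 95% limits were 3.82-fold and 3.78-fold. In dorsal dermis TRPC5 was 3.01-fold higher at Es22 (1.58 to 6.08). TRPC5 was thus highest where TRPC4 was lowest, in Es22 dorsal dermis, and without reads where TRPC4 was highest. In Es19 dorsal dermis both were low, at 1.08 CPM for TRPC5 and 6.04 CPM for TRPC4. In Es22 ventral dermis TRPC5 was level with that, at 1.13 CPM, while TRPC4 had 11.9 CPM. TRPC6, a channel opened by diacylglycerol, was lowest in Es19 dorsal dermis, with 5.57 CPM in Es22 dorsal, 5.88 CPM in Es22 ventral, 1.24 CPM in Es19 dorsal and 3.32 CPM in Es19 ventral dermis.

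**Figure D5:**
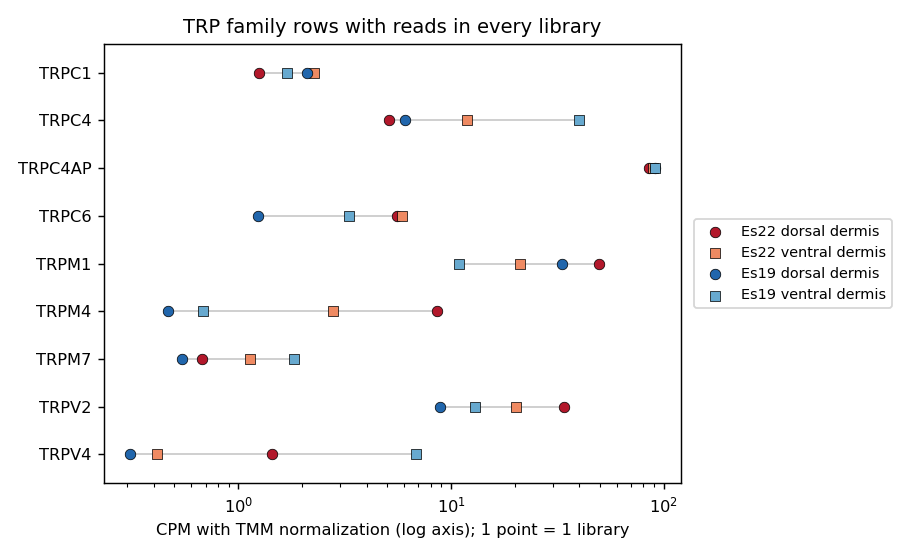
Levels of 9 TRP family rows with reads in every library, in CPM with TMM normalization on a log axis, with 1 point per library; TRPC5, with 0 reads in Es19 ventral dermis, is left out. TRPM1 is separated by region, TRPM4 by stage, and TRPC4 and TRPV4 stand highest in Es19 ventral dermis.

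TRPV2, a cation channel of endothelium, immune cells and neurons, also chosen after its values were seen, had 34.1 CPM in Es22 dorsal and 20.1 CPM in Es22 ventral dermis, against 8.90 CPM in Es19 dorsal and 12.9 CPM in Es19 ventral dermis. Both Es22 libraries were above both Es19 libraries, by 3.83-fold in dorsal (3.10 to 4.77) and 1.56-fold in ventral dermis (1.27 to 1.92). TRPM7, a channel joined to a kinase, and TRPC1 lay between 0.542 and 2.27 CPM in all libraries. GRIN2B, a subunit of NMDA receptors that edgeR passed for stage, had 2.21 CPM in Es22 dorsal and 1.55 CPM in Es22 ventral dermis, against 0.155 CPM in Es19 dorsal and 0.339 CPM in Es19 ventral dermis, the Es19 values being a handful of reads.

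Within single regions, the stage difference reached 2-fold in more rows on the Es22 side. In dorsal dermis 14 rows were 2-fold or more above Es19 at Es22 on the log2(CPM + 1) scale (18.2%, against 8.15% of all rows) and 3 were lower (3.90%, against 2.4%), the lower ones being GJA7, GRIK5 and KCNIP1. Beside the 7 named above, the higher ones included GRIA3, GRIN2B, KCNJ8, KCNS3, TRPC6 and TRPV2. In ventral dermis 8 rows were higher (10.4%, against 5.74%) and 4 were lower (5.19%, against 1.74%), the lower ones being GJA1, KCNH5, TRPC4 and TRPV4, and ASIC4 joined the same 7 on the higher side. KCNIP1, which binds the A-type potassium channels of neurons, had 0.480 CPM in Es22 dorsal and 1.13 CPM in Es22 ventral dermis, against 4.10 CPM in Es19 dorsal and 2.71 CPM in Es19 ventral dermis. It was 8.54-fold lower at Es22 in dorsal (3.44 to 27.4) and 2.39-fold lower in ventral dermis (1.20 to 5.17), with an adjusted p of 0.10 in limma.

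KCNN1 and CLCN7, among the 15 rows with the highest means, moved little. KCNG1, also among them and an electrically silent modifier of delayed rectifiers, had 122 CPM in Es22 dorsal, 98.0 CPM in Es22 ventral, 97.6 CPM in Es19 dorsal and 75.9 CPM in Es19 ventral dermis. It was 1.24-fold higher in dorsal dermis at Es22 (1.14 to 1.36) and 1.29-fold higher at Es19 (1.19 to 1.40), and higher at Es22 in each region. GRIK5, a kainate receptor subunit, had 64.4 CPM in Es22 dorsal and 96.7 CPM in Es22 ventral dermis, against 141 CPM in Es19 dorsal and 95.7 CPM in Es19 ventral dermis. Its ventral libraries were level, and in dorsal dermis it was 2.19-fold lower at Es22 (2.0 to 2.39). KCNN1, a calcium-activated potassium channel of small conductance, lay between 57.4 and 73.6 CPM, and CLCN7, the chloride and proton exchanger of lysosomes and of the osteoclast border, between 45.6 and 57.0 CPM. CACNG7 and CACNA2D2, auxiliary subunits of glutamate receptors and of calcium channels, moved by at most 1.44-fold in the 4 comparisons, CACNG7 on the higher of its rows. GRIK3 and CACNG7 each had 2 rows, whose reads the counting could have split.

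KCNAB2, a cytoplasmic beta subunit of delayed rectifiers, was lower at Es22 in both regions, with 20.8 CPM in Es22 dorsal and 22.8 CPM in Es22 ventral dermis, against 34.2 CPM in Es19 dorsal and 30.3 CPM in Es19 ventral dermis. GRIK3, another kainate receptor subunit, went the other way on both rows, and on the higher row it had 31.9 CPM in Es22 dorsal and 21.6 CPM in Es22 ventral dermis, against 19.5 CPM in Es19 dorsal and 12.5 CPM in Es19 ventral dermis. KCNK1, a tandem-pore leak channel that has a second row under KCNK1B, was 1.70-fold higher in dorsal dermis at Es22 (1.41 to 2.05) and 1.55-fold higher at Es19 (1.31 to 1.84). GRIA3, an AMPA receptor subunit, stood out in Es22 dorsal dermis with 12.9 CPM, against 4.75 CPM in Es22 ventral, 5.34 CPM in Es19 dorsal and 6.17 CPM in Es19 ventral dermis. KCND1, the pore of an A-type potassium channel, and CLCN6, a chloride and proton exchanger of late endosomes, were lowest there, at 10.8 CPM and 15.9 CPM. CACNB4, a calcium channel beta subunit, was higher in dorsal dermis, by 1.97-fold at Es22 (1.22 to 3.23) and 1.87-fold at Es19 (1.26 to 2.82).

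The remaining rows passed neither rule. The potassium channel rows KCNA3, KCNA4, KCNC2, KCNG3, KCNIP2, KCNJ5, KCNK17, KCNK1B, KCNN2 and KCNN3 lay between 0.851 and 4.88 CPM in every library. KCNV1 lay between 5.56 and 6.89 CPM, CACNG2 between 7.11 and 12.1 CPM and GRIK1 between 0.480 and 1.47 CPM. SCN2B, ASIC1 and ASIC4, P2RX4, ANO5 and ANO8 also passed neither rule in either comparison.

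Other genes of ion transport were read from 3 lists. Of 96 other channel genes, 36 had a row, and the 35 whose mean reached 1 CPM were tested. None of the 35 passed limma or the 2-fold rule in either comparison. Among them 3 had an unadjusted p under 0.05 for region and 14 for stage, where 7.55% and 20.6% of all rows did. The row left out by the filter on the mean was CHRNA4, whose low values would meet the 2-fold rule for region. Its dorsal levels were 1.35 CPM at Es22 and 1.39 CPM at Es19, and its ventral levels were 0.103 CPM and 0.136 CPM. CHRNA4 has a row only through its dorsal values, so that direction was fixed in advance. Of 36 genes of calcium release and entry, 14 had a row, and 1 of them, CASQ1, the calcium-binding protein of the sarcoplasmic reticulum of skeletal muscle, passed limma for stage and was higher at Es22. It had 15.5 CPM in Es22 dorsal and 59.8 CPM in Es22 ventral dermis, against 1.47 CPM in Es19 dorsal and 2.99 CPM in Es19 ventral dermis (limma difference 3.33, SE 0.34, adjusted p = 0.018). This is the order of CACNG1 and of the sum of the skeletal muscle markers, though not of the markers MYOG and NEB. The part of the muscle markers in the CASQ1 difference was not tested.

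Of 19 genes of the sodium and potassium pump and its partners, 10 had a row. NKAIN2, a membrane protein that binds the pump, passed limma for region, with 20.4 CPM in Es22 dorsal against 2.48 CPM in Es22 ventral dermis, and 8.67 CPM in Es19 dorsal against 0.814 CPM in Es19 ventral dermis (limma difference 2.52, SE 0.25, adjusted p = 0.039). Its relative NKAIN1 exceeded the ventral level 2-fold or more at each stage, with 15.2 CPM in Es22 dorsal against 4.85 CPM in Es22 ventral dermis, and 17.1 CPM in Es19 dorsal against 4.55 CPM in Es19 ventral dermis. FXYD3, a small regulator of the pump in epithelia, stood 2-fold or more above Es19 in each region, with 11.1 CPM in Es22 dorsal and 2.27 CPM in Es22 ventral dermis, against 0.464 CPM in Es19 dorsal and 0.543 CPM in Es19 ventral dermis. Like GJB2 and the sum of the epidermal markers, FXYD3 was highest in Es22 dorsal and second in Es22 ventral dermis. The part of the epidermal markers in the FXYD3 difference was not tested. FXYD3 and GJB2 have a row only through their Es22 values, so for them Es22 above Es19 was fixed in advance.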

How the data were processed

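RNA-seq of alligator scale dermis was used, with 1 library for each region and stage, made with a TruSeq kit and read as single reads of 50 cycles. What the authors deposited is a normalized signal, CPM with TMM factors, in which each gene's reads are divided by an effective library size. The aligner is STAR in the paper's methods, while TopHat2 (2.1.0), Partek (3), HTSeq and edgeR stand in the submitters' processing notes. The genome build used for alignment was not given in the sources used here. Reads were recovered by division of a column by what 1 read is worth, which gave whole reads within 0.05 for 99.8% to 99.96% of values. A count of 0 allows 3 reads, or 0.204 to 0.310 CPM. Intervals are exact binomial 95% intervals on recovered reads and cover counting error only, since reads without molecular identifiers are not independent molecules.

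limma (3.58.1, intensity trend) tested log2(CPM + 1) over the 10236 rows whose mean reached 1 CPM, two-sided, with a term each for region and stage and p-values adjusted after Benjamini-Hochberg (threshold 0.05). The size rule asked for a log2(CPM + 1) difference of at least 1 (2-fold) in the same direction at both stages or in both regions, a scale that understates changes of low genes. edgeR (4.0.16, quasi-likelihood) on the recovered reads was added after the data were seen. The alternatives tried were a pseudocount of 0.1 or 5, a low-value filter at a mean of 5 CPM or none, median-ratio or upper-quartile scaling, a 4-fold rule, a fit with 1 term, and omission of each library in turn, also with 1 term. The scripts were tested on simulated data. R 4.3.3, Python 3.11.15, pandas 2.3.3, numpy 2.4.6, scipy 1.17.1 and matplotlib 3.10.9 were used.

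The members, gene lists and tests were chosen with earlier results of these data known. Named genes are the members that passed limma or the size rule, the 15 with the highest mean, the 5 highest and 5 lowest in each comparison by the smaller difference, every connexin and PIEZO row, members on the study's feather and scale lists, and genes of the 3 transport lists that passed. Others were chosen after their values were seen. Values of a few rows are not reported here, though the rows count in the totals. No gene coordinates or sequences were used.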

Additional observations from a re-analysis of the deposited data

Results flagged for a closer look

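TRPV2, TRPV4, GJA4, GRIK5 and KCNS3 had differences of opposite direction, at least 1 apart on the log2(CPM + 1) scale, with counting intervals that excluded no difference on both sides. For TRPV2 the dorsal minus ventral difference was 0.73 at Es22 and -0.49 at Es19, and for GJA4 it was 0.63 at Es22 and -0.54 at Es19. For TRPV4 it was 0.79 at Es22 and -2.58 at Es19, and the Es22 minus Es19 difference of TRPV4 was 0.90 in dorsal and -2.47 in ventral dermis. GRIK5 went the other way, with a dorsal minus ventral difference of -0.58 at Es22 and 0.55 at Es19. KCNS3 had an Es22 minus Es19 difference of 1.04 in dorsal dermis but -0.41 in ventral dermis. With 1 library per region and stage these differences were not tested.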

How the results depend on the processing

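The number of members that passed limma for region was 1 as reported and 2 in edgeR. It was 0 with a pseudocount of 5, with a mean of at least 5 CPM, with upper-quartile scaling and in the fit without the stage term. For stage it was 3 as reported, 6 with a pseudocount of 0.1, 1 with a pseudocount of 5 and 7 in edgeR. It was 0 in the fit without the region term. Fits with 1 library left out also had 1 term, so they cannot show whether a call rests on 1 library, and their counts are not given. Members at least 2-fold apart by region numbered 3 as reported, 9 with a pseudocount of 0.1, 1 with a pseudocount of 5 and 1 under a 4-fold rule. By stage they numbered 7 as reported, 11 with a pseudocount of 0.1, 1 with a pseudocount of 5, 3 with a mean of at least 5 CPM and 1 under a 4-fold rule. Of 22 gene differences under up to 12 alternatives (254 values), 2 changed sign, both the stage difference of GABRD, which was -0.65 as reported, 0.51 without Es22 dorsal and 0.59 without Es19 ventral dermis (-1.88 to 0.59 over the 4 libraries left out). Those fits had no region term, so they compared the stages across unlike sets of regions. Within each region the stage difference of GABRD was negative, at -0.57 in dorsal and -0.72 in ventral dermis.

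Over all 10236 rows, limma passed 24 for region, against 40 with a pseudocount of 0.1, 8 with 5 and 45 in edgeR. Without the stage term it passed 0 (256 at an unadjusted p under 0.05). For stage it passed 320, against 486 with a pseudocount of 0.1, 144 with 5, 515 in edgeR and 0 without the region term. No paired analysis was possible because each region and stage has 1 library and the labels carry no replicate numbers. With 1 library each, differences between embryos, litters or dissections and differences between regions or stages cannot be told apart, and at this depth the upper counting limit lay more than 1.5 times above the ratio in 33 to 36 of 77 members.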
